A study of Mus musculus with 27 samples.

Results

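The 39 Hox genes of the mouse were taken as the rows of the count table whose symbol is Hox, a cluster letter from a to d and a paralogue number, out of 23420 genes in all. They lie in 4 clusters, with 11 members in Hoxa, 10 in Hoxb, 9 in Hoxc and 9 in Hoxd, numbered from 1 to 13 by paralogue group. The samples were from C57BL/6 mice that had 15% ethanol or water for 8 weeks, without any transgene or deletion in the labels, and the sources used here state neither age nor sex. From each treatment, RNA was taken from whole colon and jejunum tissue and from organoids, which are epithelial cultures grown from gut crypts and carry no muscle or nerve layer. There were 2 libraries of ethanol colon organoids and 2 of control colon organoids, 4 of ethanol and 4 of control jejunum organoids, 4 of ethanol and 4 of control colon tissue, and 4 of ethanol and 3 of control jejunum tissue, 27 in all. The labels do not say whether ethanol was present in the culture medium. Levels are given as CPM, the counts of a gene per 1000000 counts outside Rn45s, the precursor of ribosomal RNA that took a large and uneven share of the libraries. The libraries hold reads from the 3′ ends of transcripts, so that levels were not divided by gene length, and levels of different genes also depend on how well each 3′ end is annotated.

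Hox proteins are homeodomain transcription factors that give cells a position along the head-to-tail axis. Genes of low paralogue number sit at one end of each cluster and are active towards the head, and genes of high number sit at the other end and are active towards the tail, an order known as colinearity. In the gut the order is laid down in the embryo in both the mesoderm, which gives smooth muscle and connective tissue, and the endoderm, which gives epithelium, and the posterior genes mark the hindgut. Cdx proteins act upstream of the clusters, Pbx and Meis proteins bind DNA together with Hox proteins, and Polycomb proteins keep silent stretches of a cluster closed.

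The GENCODE vM21 annotation (GRCm38) places Hoxa on chromosome 6 at 52155590 to 52260880, Hoxb on chromosome 11 at 96194316 to 96368256, Hoxc on chromosome 15 at 102921103 to 103036852 and Hoxd on chromosome 2 at 74668310 to 74765142. The spans are 105.3, 173.9, 115.8 and 96.8 kb. Gene models overlap inside the clusters, and reads there may have been split or dropped in counting. On the same strand, 6 members of Hoxa, 5 of Hoxc and 4 of Hoxd overlap another gene, among them Hoxa3 with Hoxa4, Hoxa5 and Hoxa6, Hoxc5 with Hoxc6, Hoxc8, Hoxc9 and Hoxc10, and Hoxd3 with Hoxd4. On the opposite strand, 7 members of Hoxa, 4 of Hoxb and 3 of Hoxd overlap an antisense gene, and nothing in the labels says whether counting used strand. The values of all these members are uncertain to that extent.

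RefSeq promoter windows of 300 bases, from 250 before the transcript start to 50 after it on GRCm38.p6, were held for 22 of the 39 genes in 24 windows. Their median G and C content was 57.7%, against 52.7% in all 32851 windows, and they held a median of 14.5 CpG pairs, against 7. The windows were searched on both strands for 3 motifs bound by factors named above. TTTATNG, a Cdx motif, stood in the windows of Hoxb8 and Hoxd4 and in 10.9% of all windows. TGATTNAT, a motif bound by Hox and Pbx proteins together, stood in those of Hoxa2 and Hoxd11 and in 3.22% of all windows. TGACAG, a Meis motif, stood in those of Hoxa2 and Hoxa3 and in 19.2% of all windows. In the windows shown, no match overlapped another. A match describes the letters of a window and not the binding of a factor. 4 of the windows are shown because their genes are described below in colon and jejunum: those of Hoxb8 at chr11:96281655-96281954 on the plus strand, Hoxd4 at chr2:74721728-74722027 on the plus strand, Hoxa2 at chr6:52164782-52165081 on the minus strand and Hoxa3 at chr6:52213018-52213317 on the minus strand. Each reads 5′ to 3′ along its gene, and capitals mark a motif match, read on the other strand where the letters run in reverse complement.
Hoxb8 promoter: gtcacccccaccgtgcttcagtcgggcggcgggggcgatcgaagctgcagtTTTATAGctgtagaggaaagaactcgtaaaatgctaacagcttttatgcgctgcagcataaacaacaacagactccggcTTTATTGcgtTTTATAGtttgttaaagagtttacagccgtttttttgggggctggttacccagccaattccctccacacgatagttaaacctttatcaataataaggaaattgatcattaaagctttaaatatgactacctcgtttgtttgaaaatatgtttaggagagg
Hoxd4 promoter: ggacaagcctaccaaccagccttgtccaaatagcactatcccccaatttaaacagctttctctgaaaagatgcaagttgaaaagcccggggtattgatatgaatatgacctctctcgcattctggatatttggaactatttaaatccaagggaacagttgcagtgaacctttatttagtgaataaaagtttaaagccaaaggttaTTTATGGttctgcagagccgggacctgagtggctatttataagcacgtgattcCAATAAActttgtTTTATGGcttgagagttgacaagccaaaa
Hoxa2 promoter: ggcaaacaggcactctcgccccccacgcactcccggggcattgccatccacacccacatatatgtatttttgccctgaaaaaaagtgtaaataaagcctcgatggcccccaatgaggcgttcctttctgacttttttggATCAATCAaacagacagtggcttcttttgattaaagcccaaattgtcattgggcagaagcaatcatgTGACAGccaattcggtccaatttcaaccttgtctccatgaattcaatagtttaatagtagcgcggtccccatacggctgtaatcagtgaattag
Hoxa3 promoter: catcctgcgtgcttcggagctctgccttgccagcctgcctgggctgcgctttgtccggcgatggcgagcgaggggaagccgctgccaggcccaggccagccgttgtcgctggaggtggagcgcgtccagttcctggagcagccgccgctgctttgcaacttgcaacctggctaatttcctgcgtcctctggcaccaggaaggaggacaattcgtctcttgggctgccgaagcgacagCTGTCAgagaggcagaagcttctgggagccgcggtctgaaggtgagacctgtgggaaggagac

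Counts outside Rn45s were 818240 to 2843857 in colon organoids, 3033578 to 5429194 in jejunum organoids, 3536937 to 6825729 in colon tissue and 684906 to 7606668 in jejunum tissue. Rn45s took 27.4 to 48.3%, 19.7 to 30.2%, 18.3 to 43.0% and 53.4 to 84.3% of the total counts in the same order of groups. 1 count was therefore worth between 0.131 and 1.46 CPM, and a member below that level could not be seen. The 10 epithelium markers had counts in all 27 libraries. Summed smooth muscle markers were at 100.2 to 178 CPM in colon organoids and 116 to 169 CPM in jejunum organoids, with 3 to 7 and 4 to 8 of the 10 markers at 0, against 4715 to 25080 CPM in colon tissue and 705 to 3514 CPM in jejunum tissue. The colon epithelium markers summed to 9752 and 14790 CPM in ethanol colon organoids and to 1154 and 3501 CPM in control colon organoids, against 1133 to 1588 CPM in jejunum organoids, so that 1 control culture lay within the jejunum range. The jejunum epithelium markers summed to 151 to 448 CPM in colon organoids, against 3640 to 10460 CPM in jejunum organoids. In whole tissue, fewer cells of a type and less RNA per cell cannot be told apart.

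Of the 8 colon tissue libraries, 3 stood apart in their Hox genes. Hoxb13, which marks the most distal colon, the rectum and the prostate, had 182, 800.5, 0.180 and 0.146 CPM in ethanol colon tissue and 182, 0, 0.274 and 0 CPM in control colon tissue. Ethanol libraries 1 and 2 and control library 1 were thus over 100 CPM, and the other 5 were at or near 0. Of the 34 members with at least 10 counts in colon tissue, 10 had their 3 highest values in these libraries and 15 their 3 lowest, where 13.2% and 6.1% of 15567 genes did. The libraries were picked by Hoxb13, and no test is given. They held the 3 highest colon tissue values of Hoxa2, Hoxa3, Hoxa5, Hoxa6, Hoxa7, Hoxa9, Hoxa10, Hoxa13 and Hoxd13. They held the 3 lowest values of Hoxb3 to Hoxb8, Hoxc6, Hoxc8, Hoxc9, Hoxc10, Hoxd3, Hoxd4, Hoxd8, Hoxd9 and Hoxd10. Hoxb9 was at 36.5 to 59.9 CPM in all 8. Their smooth muscle markers summed to 25080, 4852 and 19160 CPM, against 4715 to 6458 CPM in the other 5, and their colon epithelium markers to 11580, 8161 and 25120 CPM, against 41060 to 73040 CPM. The part of these markers in the Hox levels was not tested. The labels name no position along the colon, and the counts of calls between segments, between organoids and tissue and for ethanol in colon tissue are given with and without these 3 libraries.

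**Figure D1:**
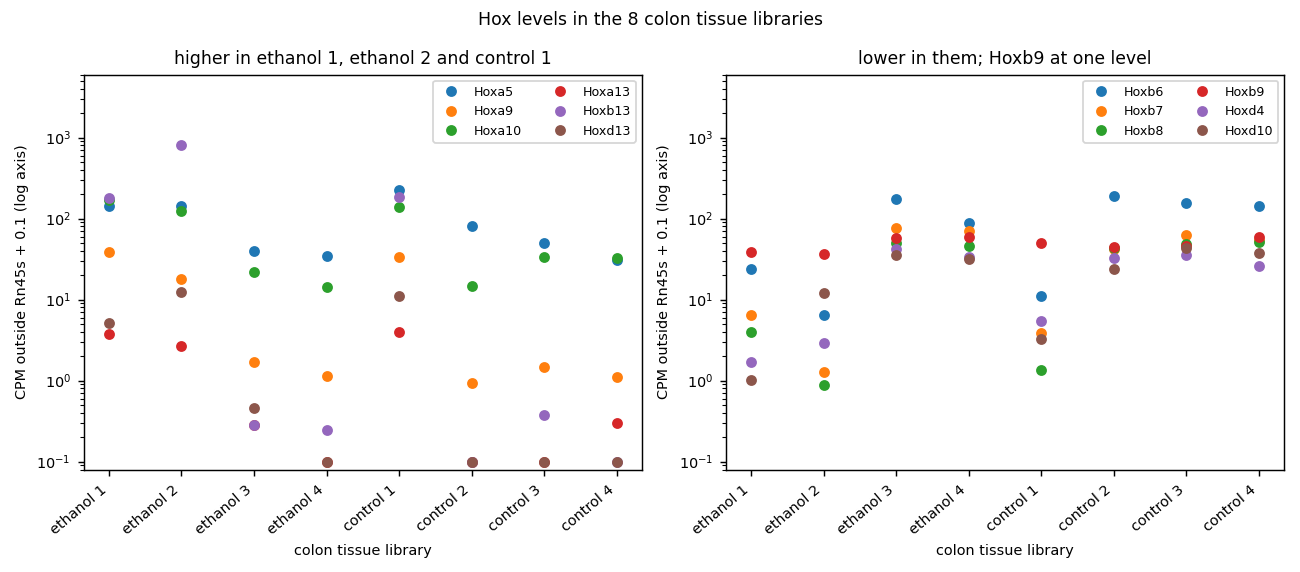
Levels of 12 Hox genes in the 8 colon tissue libraries, as CPM outside Rn45s plus 0.1 on a log axis, with ethanol libraries left of control libraries. In ethanol libraries 1 and 2 and control library 1, Hoxb13 lay at 182 to 800.5 CPM and the Hoxa genes and Hoxd13 were high, while Hoxb6, Hoxb7, Hoxb8, Hoxd4 and Hoxd10 were low and Hoxb9 was at 36.5 to 59.9 CPM throughout.

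Nearly all members were seen somewhere. 38 of the 39 had at least 1 count in some library, and Hoxc13 had none. In ethanol and control libraries, 27 and 20 members had a count in colon organoids, 17 and 16 in jejunum organoids, 36 and 35 in colon tissue and 29 and 22 in jejunum tissue. Hox genes together came to 539 to 768 CPM in colon organoids and only 9.39 to 24.4 CPM in jejunum organoids, and to 620 to 1314 CPM in colon tissue and 92.7 to 334 CPM in jejunum tissue. The 4 clusters shared this signal unequally. Hoxb made 68.7 to 88.9% of the Hox counts in colon organoids, and Hoxa 49.2 to 89.8% in jejunum organoids. In colon tissue Hoxb made 38.3 to 73.0% and Hoxa 11.8 to 58.6%. Hoxc made 0.196 to 2.35% in colon tissue and 21.8 to 47.4% in jejunum tissue, while Hoxd made 1.44 to 16.2% in colon tissue and 0.573 to 2.58% in jejunum tissue.

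Grouped by paralogue number, the posterior genes 9 to 13 made 31.3 to 70.5% of the Hox counts in colon organoids and 0 to 6.15% in jejunum organoids. They made 13.6 to 78.1% in colon tissue and 0.198 to 3.27% in jejunum tissue, so that the segments did not overlap in tissue or in culture. The anterior genes 1 to 4 made 8.91 to 28.1% in colon organoids, 63.9 to 81.6% in jejunum organoids, 5.62 to 25.9% in colon tissue and 25.8 to 46.9% in jejunum tissue. Hoxb9 was the highest Hox gene in all 4 colon organoid libraries and Hoxa3 in all 8 jejunum organoid libraries. Among colon tissue libraries the highest gene was Hoxb13 or Hoxa5 in the 3 that stood apart and Hoxb5 or Hoxb6 in the other 5. Hoxb4, Hoxb5 or Hoxc8 led in jejunum tissue.

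**Figure D2:**
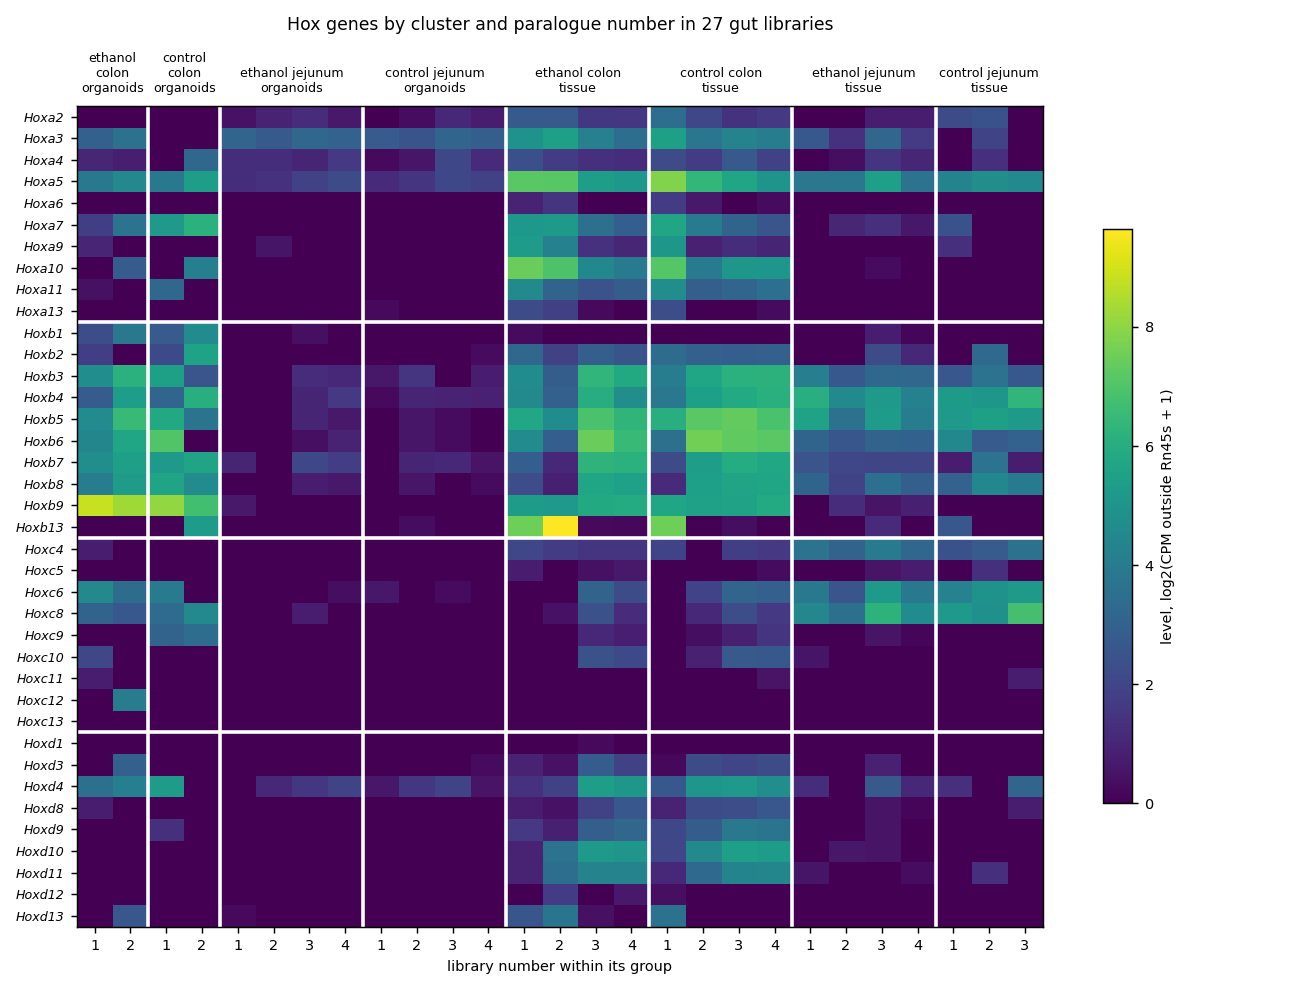
Level of 38 of the 39 Hox genes, as log2 of CPM outside Rn45s plus 1, in the 27 libraries, with genes ordered by cluster and paralogue number and white lines between groups and clusters. Jejunum organoids were dark outside Hoxa3, Hoxa4, Hoxa5 and a few low Hoxb and Hoxd genes, and colon libraries were bright through Hoxb9.

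In tissue, colon and jejunum were told apart by position in the clusters. Genes 9 to 13 had nearly all of their tissue counts in colon, most Hoxa, Hoxb and Hoxd genes of lower number were higher in colon, and Hoxc4, Hoxc6 and Hoxc8 were higher in jejunum. P-values in all comparisons measure the spread between the libraries of a group, each of which has its own donor number in the labels. Of 29 members tested, 20 were higher and 3 lower in colon (edgeR's quasi-likelihood test, averaged over treatments, Benjamini-Hochberg adjusted p under 0.05), where 36.8% of all genes tested were higher and 24.7% lower. By cluster, 7 of 9 tested Hoxa, 6 of 9 Hoxb and 6 of 7 Hoxd genes were higher and none lower, and 1 of 4 Hoxc genes was higher and 3 lower. 17 of the 29, among them all 11 tested genes of numbers 9 to 13, passed the filter on low counts with no jejunum library over its level. These counts, the median and the correlation below therefore describe the genes that passed and not all members. The tested genes had a median log2 fold change of 3.17, against 0.30 over all genes tested, and across the 29 genes Spearman's rho between paralogue number and log2 fold change was 0.68 (0.82 over 9 Hoxa, 0.62 over 9 Hoxb, 0.2 over 4 Hoxc and 0.71 over 7 Hoxd genes). The ranges of the 8 colon and 7 jejunum libraries were compared for the 34 members with at least 10 counts. Of these, 8 lay apart as higher in colon, among them Hoxa3, Hoxa7, Hoxa10, Hoxa11, Hoxb9, Hoxd9 and Hoxd10. As lower, 2 lay apart, Hoxc4 and Hoxc8. Among all genes, 23.7% lay apart as higher and 6.53% as lower, so that both shares of members were near those of all genes.

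Without the 3 colon tissue libraries that stood apart, 17 of 25 tested members were higher and 3 lower, and Hoxa4 (log2 fold change 1.51, adjusted p = 0.134) and Hoxa5 (0.52, adjusted p = 0.195) did not pass the test. For this fit, and for later fits with libraries left out or a replicate block, the share of all genes called is not given. Their counts of members are therefore not set against that share. Control mice alone gave 9 higher and 2 lower, where 25% and 17.1% of all genes were called, and ethanol mice alone 13 higher and 3 lower, where 26% and 22.1% were called.

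Among the anterior genes, Hoxa3, which patterns the pharynx and is needed for the thymus and parathyroid, was higher in colon. In colon tissue, Hoxa3 had 30.3, 43.6, 17.6 and 10.1 CPM in ethanol mice and 43.3, 12.7, 18.6 and 15.8 CPM in control mice. In jejunum tissue, Hoxa3 had 5.24, 1.59, 7.99 and 2.23 CPM in ethanol mice and 0, 2.92 and 0 CPM in control mice. No colon library overlapped a jejunum library (log2 fold change 3.36 ± 0.58, adjusted p = 8.15e-05). Hoxb3, a gene of the hindbrain segments, was also higher. In colon tissue, Hoxb3 had 24.8, 6.14, 80.0 and 56.8 CPM in ethanol mice and 16.1, 50.9, 70.5 and 72.7 CPM in control mice. In jejunum tissue, Hoxb3 had 16.7, 5.31, 8.42 and 8.15 CPM in ethanol mice and 5.08, 11.7 and 5.30 CPM in control mice. 6 of 8 colon libraries lay above every jejunum library, and the other 2 were among those that stood apart (log2 fold change 2.12 ± 0.55, adjusted p = 0.00397). Hoxd4, active in the hindbrain and the neck vertebrae, split the colon libraries. In colon tissue, Hoxd4 had 1.59, 2.77, 41.5 and 33.4 CPM in ethanol mice and 5.36, 32.2, 35.7 and 25.8 CPM in control mice. In jejunum tissue, Hoxd4 had 1.43, 0, 5.40 and 1.18 CPM in ethanol mice and 1.45, 0 and 7.95 CPM in control mice. Its colon values split into 5 high and 3 low, and the low ones lay within the jejunum range (log2 fold change 2.54 ± 0.92, adjusted p = 0.0276).

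Hoxb4, known for expanding blood stem cells when overexpressed, did not pass the test. In colon tissue, Hoxb4 had 23.2, 6.74, 64.0 and 26.4 CPM in ethanol mice and 13.7, 43.0, 59.0 and 68.4 CPM in control mice. In jejunum tissue, Hoxb4 had 66.2, 23.6, 36.7 and 18 CPM in ethanol mice and 37.0, 33.6 and 80.8 CPM in control mice. The segments overlapped over most of their range (log2 fold change −0.66 ± 0.48, adjusted p = 0.249). Hoxb2 was likewise not called. In colon tissue, Hoxb2 had 8.64, 2.77, 6.47 and 4.69 CPM in ethanol mice and 9.77, 6.79, 6.31 and 6.70 CPM in control mice. In jejunum tissue, Hoxb2 had 0, 0, 3.67 and 1.18 CPM in ethanol mice and 0, 8.76 and 0 CPM in control mice. 4 of 7 jejunum libraries had no count of Hoxb2 (log2 fold change 1.46 ± 0.71, adjusted p = 0.0828). Hoxb1, which sets the identity of a hindbrain segment, was close to absent from tissue. In colon tissue, Hoxb1 had 0.228, 0, 0 and 0 CPM in ethanol mice and no count in control mice. In jejunum tissue, Hoxb1 had 0, 0, 0.648 and 0.132 CPM in ethanol mice and no count in control mice. It had 1 count in colon tissue and 4 in jejunum tissue. Hoxc4, needed in mice for a normal oesophageal muscle layer, ran the other way. In colon tissue, Hoxc4 had 3.19, 2.18, 1.80 and 1.76 CPM in ethanol mice and 2.83, 0, 2.47 and 2.03 CPM in control mice. In jejunum tissue, Hoxc4 had 11.9, 7.44, 15.1 and 8.41 CPM in ethanol mice and 4.36, 5.84 and 11.3 CPM in control mice. Every jejunum library was above every colon library (log2 fold change −2.62 ± 0.43, adjusted p = 4.19e-05).

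Central genes 5 to 8 were mostly higher in colon in Hoxa and Hoxb and lower in Hoxc. Hoxa5, a regulator of lung development, was high in both segments. In colon tissue, Hoxa5 had 142, 141, 40.3 and 34.4 CPM in ethanol mice and 228, 82.0, 49.4 and 30.6 CPM in control mice. In jejunum tissue, Hoxa5 had 13.3, 13.6, 43.0 and 11.8 CPM in ethanol mice and 19.6, 26.3 and 23.2 CPM in control mice. The highest 3 colon values were in the libraries that stood apart, and control libraries 2 and 3 also lay above the jejunum range. Ethanol libraries 3 and 4 and control library 4 lay within it (log2 fold change 1.55 ± 0.49, adjusted p = 0.0135). Hoxa7 differed more. In colon tissue, Hoxa7 had 34.1, 36.5, 10.8 and 6.30 CPM in ethanol mice and 51.3, 14.1, 7.68 and 4.87 CPM in control mice. In jejunum tissue, Hoxa7 had 0, 1.06, 1.51 and 0.526 CPM in ethanol mice and 4.36, 0 and 0 CPM in control mice. All colon libraries were above all jejunum libraries (log2 fold change 3.54 ± 0.72, adjusted p = 0.000501). Hoxb5, which acts in the enteric neural crest, was among the highest members in tissue. In colon tissue, Hoxb5 had 53.0, 25.2, 116 and 79.1 CPM in ethanol mice and 65.2, 145, 161 and 117 CPM in control mice. In jejunum tissue, Hoxb5 had 45.7, 11.2, 39.7 and 15.8 CPM in ethanol mice and 34.8, 43.8 and 35.1 CPM in control mice. The difference was smaller than those of Hoxb6 and Hoxb7 (log2 fold change 1.05 ± 0.38, adjusted p = 0.0244).

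Hoxb6, the highest Hox gene in several colon libraries, varied widely within colon. In colon tissue, Hoxb6 had 24.1, 6.34, 175 and 89.1 CPM in ethanol mice and 10.9, 190.0, 156 and 144 CPM in control mice. In jejunum tissue, Hoxb6 had 7.62, 5.05, 7.34 and 6.97 CPM in ethanol mice and 21.8, 5.84 and 7.28 CPM in control mice. 6 of 8 colon libraries exceeded every jejunum library (log2 fold change 2.96 ± 0.79, adjusted p = 0.00602). Hoxb7, whose promoter is widely used to mark the kidney's collecting ducts, followed it. In colon tissue, Hoxb7 had 6.37, 1.19, 75.7 and 70.2 CPM in ethanol mice and 3.78, 41.6, 62.5 and 54.6 CPM in control mice. In jejunum tissue, Hoxb7 had 4.76, 3.19, 3.02 and 3.02 CPM in ethanol mice and 0.726, 11.7 and 0.662 CPM in control mice. The 3 low colon libraries again fell into the jejunum range (log2 fold change 3.17 ± 0.99, adjusted p = 0.014). Hoxb8, a gene of the microglial lineage in mice, was not called. In colon tissue, Hoxb8 had 3.87, 0.792, 50.0 and 45.4 CPM in ethanol mice and 1.26, 43.0, 48.3 and 50.8 CPM in control mice. In jejunum tissue, Hoxb8 had 7.62, 2.92, 10.4 and 6.57 CPM in ethanol mice and 7.26, 21.9 and 14.6 CPM in control mice. 3 colon libraries lay below most jejunum libraries (log2 fold change 1.18 ± 0.85, adjusted p = 0.247).

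Hoxc6 and Hoxc8, thoracic genes of the spinal cord and ribs, were the central genes lower in colon. In colon tissue, Hoxc6 had 0, 0, 7.37 and 3.66 CPM in ethanol mice and 0, 2.83, 7.96 and 6.70 CPM in control mice. In jejunum tissue, Hoxc6 had 13.8, 4.78, 36.7 and 14.1 CPM in ethanol mice and 18.1, 29.2 and 36.4 CPM in control mice. Colon libraries that stood apart had no Hoxc6 count (log2 fold change −3.12 ± 0.82, adjusted p = 0.00497). In colon tissue, Hoxc8 had 0, 0.396, 4.32 and 1.32 CPM in ethanol mice and 0, 1.13, 3.84 and 2.03 CPM in control mice. In jejunum tissue, Hoxc8 had 20.9, 10.9, 73.9 and 25.1 CPM in ethanol mice and 34.8, 27.7 and 109.9 CPM in control mice. Here the segments did not overlap, and jejunum was higher by the widest margin of any member called lower (log2 fold change −5.26 ± 0.76, adjusted p = 4.94e-05).

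The 11 posterior genes tested had a median log2 fold change of 6.35, against 1.89 for genes 1 to 4 and 1.55 for genes 5 to 8. All 11 passed the filter with no jejunum library over its level, so that the filter partly fixed this contrast. Hoxb9, a patterning gene of the ribs, was present at an even level in colon. In colon tissue, Hoxb9 had 38.9, 36.5, 56.8 and 59.9 CPM in ethanol mice and 50.2, 45.0, 45.5 and 59.1 CPM in control mice. In jejunum tissue, Hoxb9 had 0, 1.33, 0.432 and 0.789 CPM in ethanol mice and no count in control mice. It had the smallest p-value of all members, and its colon values in the 3 libraries high in Hoxb13 (36.5 to 50.2 CPM) overlapped those in the other 5 (45.0 to 59.9 CPM) (log2 fold change 8.02 ± 0.51, adjusted p = 1.31e-09). Hoxa9, known from blood formation and leukaemia, was high in 3 colon libraries. In colon tissue, Hoxa9 had 38.7, 18, 1.62 and 1.03 CPM in ethanol mice and 33.2, 0.848, 1.37 and 1.01 CPM in control mice. In jejunum tissue, Hoxa9 had no count in ethanol mice and 1.45, 0 and 0 CPM in control mice. Its counts came to 501 in colon and 2 in jejunum, a depth-scaled ratio of 135 (95% interval 37.1 to 1120). In the 3 libraries that stood apart it had 170, 91 and 211 counts and in the other 5 it had 29, which alone gave 12.8 (95% interval 3.25 to 111). Hoxa10, needed in the uterus, was seen in every colon library. In colon tissue, Hoxa10 had 171, 124, 21.6 and 14.4 CPM in ethanol mice and 137, 14.7, 33.2 and 32.7 CPM in control mice. In jejunum tissue, Hoxa10 had 0, 0, 0.216 and 0 CPM in ethanol mice and no count in control mice. With 2801 counts in colon and 1 in jejunum, the ratio was 1510 (95% interval 270 to 59500), or 488 (95% interval 87.3 to 19300) without the 3 libraries. Hoxa11, which acts in the limb and kidney together with Hoxd11, had no jejunum count. In colon tissue, Hoxa11 had 23.0, 7.33, 4.50 and 6.15 CPM in ethanol mice and 25.5, 6.50, 7.96 and 10.3 CPM in control mice. Hoxa11 had no count in the 7 jejunum tissue libraries. Its mean was at least 82.4-fold higher in colon, with the floor of 3 counts taken over the group, and at least 51.2-fold without the 3 libraries. All intervals and floors cover counting error only.

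Among the Hoxd genes, Hoxd9 and Hoxd10, known for lumbar motor neurons and limbs, were found throughout colon. In colon tissue, Hoxd9 had 2.05, 0.792, 6.65 and 8.06 CPM in ethanol mice and 3.31, 6.22, 13.4 and 12 CPM in control mice. In jejunum tissue, Hoxd9 had 0, 0, 0.432 and 0 CPM in ethanol mice and no count in control mice. With 256 counts in colon and 2 in jejunum, the ratio was 68.9 (95% interval 18.9 to 572). In colon tissue, Hoxd10 had 0.910, 11.9, 35.2 and 31.6 CPM in ethanol mice and 3.15, 23.5, 42.8 and 37.8 CPM in control mice. In jejunum tissue, Hoxd10 had 0, 0.531, 0.432 and 0 CPM in ethanol mice and no count in control mice. The jejunum held 4 counts of Hoxd10 in all (fitted log2 fold change 7.74 ± 1.48, adjusted p = 0.000672). Hoxd11, the partner of Hoxa11, had a similar pattern. In colon tissue, Hoxd11 had 0.910, 10.3, 18.7 and 18.9 CPM in ethanol mice and 1.10, 8.77, 19.5 and 20.7 CPM in control mice. In jejunum tissue, Hoxd11 had 0.476, 0, 0 and 0.263 CPM in ethanol mice and 0, 1.46 and 0 CPM in control mice. Its lowest colon values were in ethanol library 1 and control library 1 and its log2 fold change was 5.21 ± 1.0, adjusted p = 0.000288. Fitted folds of members with no count in a group, such as Hoxa9, Hoxa10, Hoxa11, Hoxb9, Hoxd9 and Hoxd10, depend on the prior count and are no bound.

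Hoxb13 was present in jejunum tissue at 0, 0, 1.30 and 0 CPM in ethanol mice and 5.08, 0 and 0 CPM in control mice, and in the 3 colon libraries given above (log2 fold change 6.35 ± 2.36, adjusted p = 0.0351). This call was lost when any of several single libraries was left out: the adjusted p was 0.0794, 0.0701 and 0.0787 without control jejunum tissue 1, 2 or 3, and 0.053, 0.0567, 0.0742 and 0.0592 without ethanol jejunum tissue 1, 2, 3 or 4. In control mice only it was also lost (3.96, adjusted p = 0.38). The other 5 colon libraries held 3 counts of Hoxb13, against 13 in jejunum, a ratio of 0.204 (95% interval 0.0373 to 0.743). The higher level in colon thus rested on the 3 libraries, which were picked by Hoxb13 itself. Hoxc9, a thoracic gene of the motor columns, was low. In colon tissue, Hoxc9 had 0, 0, 1.08 and 0.733 CPM in ethanol mice and 0, 0.283, 0.823 and 1.83 CPM in control mice. In jejunum tissue, Hoxc9 had 0, 0, 0.432 and 0.132 CPM in ethanol mice and no count in control mice. It had 24 counts in colon and 3 in jejunum, a ratio of 4.3 (95% interval 1.31 to 22.3), or 7.08 (95% interval 2.15 to 36.7) without the 3 libraries, and was not tested after the filter on low counts. Hoxc12, a gene of hair follicles, had no count in tissue.

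The other 14 members stayed below a mean of 5 CPM in every group. Hoxa2, Hoxa4, Hoxd3 and Hoxd8 had counts in all 8 colon tissue libraries, at 1.65 to 10.2, 1.32 to 5.49, 0.158 to 5.93 and 0.396 to 5.13 CPM. In jejunum tissue they had counts in 4, 4, 1 and 3 of 7 libraries, at no more than 4.38, 1.73, 0.864 and 0.662 CPM. Hoxa4 (1.89 ± 0.73, adjusted p = 0.0325), Hoxd3 (4.58 ± 1.56, adjusted p = 0.018) and Hoxd8 (3.09 ± 0.89, adjusted p = 0.00593) were called higher in colon on the log2 scale, and Hoxa2 (1.45 ± 0.64, adjusted p = 0.0566) was not. Hoxc10, of the lumbar motor neurons, had counts in 5 of 8 colon libraries at up to 5.49 CPM and 1 count in jejunum, a ratio of 51.6 (95% interval 9.05 to 2060), or 84.9 (95% interval 14.9 to 3390) without the 3 libraries, and was called (adjusted p = 0.0336), though not by DESeq2 (adjusted p = 0.0697). The 13th paralogues Hoxa13 and Hoxd13, which act in the hindgut, the genital tract and the digits, were seen in 5 and 4 colon tissue libraries and in no jejunum tissue library, at least 9.51-fold and 25.9-fold higher in colon. These bounds rest on the 3 libraries that stood apart, with 16, 13 and 25 counts of Hoxa13 and 22, 62 and 70 of Hoxd13, since the other 5 held 2 counts of each. They did not pass the test (adjusted p = 0.0692 and 0.0937). Hoxa6 and Hoxd12 were likewise seen in colon alone, in 5 and 3 tissue libraries at up to 2.21 and 2.18 CPM, at least 5.12-fold and 2.78-fold higher than in jejunum tissue, though the other 5 libraries held 3 and 4 counts. Hoxc5 and Hoxc11 had counts in 4 and 1 colon and 3 and 1 jejunum libraries, at no more than 1.46 CPM. Hoxd1 had 1 count in colon tissue.

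Left out 1 at a time, further libraries ended the calls of Hoxa4 (without control colon tissue 3, control jejunum tissue 1 or 3, or ethanol colon tissue 1, adjusted p 0.0584, 0.0982, 0.101 and 0.0728) and of Hoxb5 (without control jejunum tissue 1 or 3 or ethanol colon tissue 3, adjusted p 0.0545, 0.0508 and 0.0503). Hoxc10 lost its call without any 1 of 10 libraries (control colon tissue 3, control colon tissue 4, control jejunum tissue 1, control jejunum tissue 3, ethanol colon tissue 3, ethanol colon tissue 4, ethanol jejunum tissue 1, ethanol jejunum tissue 2, ethanol jejunum tissue 3 and ethanol jejunum tissue 4), with adjusted p from 0.0514 to 0.0668. Hoxd4 lost its call without control jejunum tissue 1 or control jejunum tissue 2 (adjusted p = 0.0705 and 0.0585).

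In organoids, colon was higher than jejunum in the 9 Hoxb genes tested and in most other members tested, and the Hoxc genes no longer ran the other way. Of 18 members tested, 15 were higher and 1, Hoxa3, lower in colon, where 29.1% of all genes tested were higher and 30.7% lower. All 9 tested Hoxb genes were higher, with 3 of 5 Hoxa genes, 2 of 3 Hoxc genes and Hoxd4. 13 of the 18 passed the filter with no jejunum library over its level, so that these entered only through colon libraries, where they are high, and the counts, the median and the correlation describe the genes that passed and not all members. The median log2 fold change was 6.29, against −0.08 over all genes tested, and Spearman's rho with paralogue number was 0.33 across the 18 genes. Ranges lay apart for 10 of the 23 members with at least 10 counts, all higher in colon: Hoxa5, Hoxa7, Hoxb1, Hoxb3, Hoxb4, Hoxb5, Hoxb7, Hoxb8, Hoxb9 and Hoxc8. 12.2% of all genes lay apart as higher and 14.9% as lower. Each colon group held 2 libraries, and values within a pair were often far apart. Of the markers of other cell types tested, 5 of 6 neuron and glia, 4 of 5 fibroblast and 4 of 5 immune markers were called higher in colon than in jejunum organoids. So were 1 of 3 smooth muscle and 1 of 2 squamous markers. Called lower were 1 fibroblast marker, 1 immune marker and the 1 endothelium marker tested. Summed immune markers were at 41.6 to 488 CPM in colon and 3.21 to 10.5 CPM in jejunum organoids, and squamous markers at 34.9 to 492 CPM in colon and 3.65 to 9.60 CPM in jejunum organoids. Neuron and glia markers were at 29.0 to 127 CPM in colon and 4.07 to 7.11 CPM in jejunum organoids, and fibroblast markers at 45.2 to 175 CPM in colon and 37.2 to 54.7 CPM in jejunum organoids. In the colon organoid libraries, 4 to 7 of 9 immune, 5 to 7 of 9 squamous, 0 to 7 of 10 neuron and glia and 4 to 6 of 10 fibroblast markers were at 0. The sums can thus rest on a few markers and do not show that a cell type was present. The part of these markers in the Hox differences was not tested.

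Hoxb9 was again the gene with the smallest p-value. In colon organoids, Hoxb9 had 451 and 306 CPM in ethanol mice and 272 and 104 CPM in control mice. In jejunum organoids, Hoxb9 had 0.590, 0, 0 and 0 CPM in ethanol mice and no count in control mice. The 2333 counts in colon organoids against 3 in jejunum organoids gave a ratio of 3800 (95% interval 1300 to 18400, log2 fold change 11.42 ± 0.57, adjusted p = 4.18e-07). Hoxb8 lay apart in the same way. In colon organoids, Hoxb8 had 15.5 and 38.7 CPM in ethanol mice and 49.1 and 24.4 CPM in control mice. In jejunum organoids, Hoxb8 had 0, 0, 0.659 and 0.582 CPM in ethanol mice and 0, 0.490, 0 and 0.217 CPM in control mice. Its log2 fold change was 6.85 ± 0.67, adjusted p = 4.62e-06. Hoxb7 was the most even of the cluster over the 4 colon organoid libraries. In colon organoids, Hoxb7 had 25.7 and 42.4 CPM in ethanol mice and 34.9 and 48.9 CPM in control mice. In jejunum organoids, Hoxb7 had 0.983, 0, 3.30 and 2.33 CPM in ethanol mice and 0, 0.980, 1.15 and 0.434 CPM in control mice. Every colon library was over every jejunum library (log2 fold change 5.04 ± 0.63, adjusted p = 3.14e-05).

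Hoxb6 was uneven, with 1 colon library at 0. In colon organoids, Hoxb6 had 20.8 and 49.8 CPM in ethanol mice and 130.1 and 0 CPM in control mice. In jejunum organoids, Hoxb6 had 0, 0, 0.330 and 0.873 CPM in ethanol mice and 0, 0.490, 0.229 and 0 CPM in control mice. Its call (log2 fold change 7.51 ± 1.01, adjusted p = 5.42e-05) was lost without control colon organoid 1 (2.15), since that group was then at 0. Hoxb5 had a count in each colon library and in 4 of 8 jejunum libraries. In colon organoids, Hoxb5 had 24.3 and 91.4 CPM in ethanol mice and 57.0 and 12.2 CPM in control mice. In jejunum organoids, Hoxb5 had 0, 0, 0.989 and 0.582 CPM in ethanol mice and 0, 0.490, 0.229 and 0 CPM in control mice. The log2 fold change was 7.24 ± 0.74, adjusted p = 6.54e-06. Hoxb4 and Hoxb3 reached over 40 CPM in some colon organoids and stayed low in jejunum organoids. In colon organoids, Hoxb4 had 5.98 and 40.1 CPM in ethanol mice and 7.86 and 66.0 CPM in control mice. In jejunum organoids, Hoxb4 had 0, 0, 0.989 and 2.04 CPM in ethanol mice and 0.184, 0.980, 0.918 and 0.869 CPM in control mice. Its log2 fold change was 5.06 ± 0.83, adjusted p = 0.000249. In colon organoids, Hoxb3 had 25.7 and 69.9 CPM in ethanol mice and 44.2 and 4.89 CPM in control mice. In jejunum organoids, Hoxb3 had 0, 0, 1.32 and 1.16 CPM in ethanol mice and 0.553, 1.71, 0 and 0.652 CPM in control mice. Here control colon organoid 2 was the lowest colon library (log2 fold change 5.59 ± 0.79, adjusted p = 7.98e-05).

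The anterior end of the cluster also had counts in every colon organoid library for Hoxb1 and in 3 of 4 for Hoxb2. In colon organoids, Hoxb1 had 3.87 and 13.4 CPM in ethanol mice and 5.89 and 24.4 CPM in control mice. In jejunum organoids, Hoxb1 had 0, 0, 0.330 and 0 CPM in ethanol mice and no count in control mice. Hoxb1 had 61 counts in colon and 1 in jejunum, a ratio of 298 (95% interval 51.5 to 12000, fitted log2 fold change 7.34 ± 0.94, adjusted p = 0.000147). In colon organoids, Hoxb2 had 2.46 and 0 CPM in ethanol mice and 3.44 and 47.7 CPM in control mice. In jejunum organoids, Hoxb2 had no count in ethanol mice and 0, 0, 0 and 0.217 CPM in control mice. Hoxb2 had most of its counts in 1 library, with 53 in colon and 1 in jejunum, a ratio of 259 (95% interval 44.5 to 10400, adjusted p = 0.00139). Without ethanol colon organoid 1 its ethanol group was at 0 and Hoxb2 was not called (adjusted p = 1). Hoxb13, at the other end, had 0 and 37.9 CPM in control colon organoids, no count in ethanol colon organoids and 1 count in jejunum organoids, and was not tested.

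Of the Hoxa genes, Hoxa3 ran against the rest. In colon organoids, Hoxa3 had 6.68 and 11.2 CPM in ethanol mice and no count in control mice. In jejunum organoids, Hoxa3 had 7.86, 5.71, 8.24 and 7.27 CPM in ethanol mice and 5.89, 4.65, 7.80 and 6.52 CPM in control mice. Jejunum organoids were even, and the control colon cultures alone were at 0, so that the fitted log2 fold change (−3.62 ± 0.71, adjusted p = 0.00114) rested on them. In ethanol mice alone it was 0.21 (adjusted p = 0.753). Hoxa5 was higher in colon. In colon organoids, Hoxa5 had 14.1 and 22.3 CPM in ethanol mice and 13.8 and 40.3 CPM in control mice. In jejunum organoids, Hoxa5 had 1.38, 1.60, 2.64 and 3.78 CPM in ethanol mice and 1.29, 1.71, 3.21 and 2.61 CPM in control mice. No libraries overlapped (log2 fold change 3.07 ± 0.41, adjusted p = 4.99e-05). Hoxa7 had no jejunum organoid count. In colon organoids, Hoxa7 had 2.46 and 11.9 CPM in ethanol mice and 35.4 and 70.9 CPM in control mice. Hoxa7 had no count in the 8 jejunum organoid libraries. Its mean was at least 346-fold higher in colon. Hoxa10 was found in 1 library of each colon group. In colon organoids, Hoxa10 had 0 and 5.95 CPM in ethanol mice and 0 and 17.1 CPM in control mice. Hoxa10 had no count in the 8 jejunum organoid libraries. Its mean was at least 66.1-fold higher (adjusted p = 0.0198), and DESeq2 gave an adjusted p of 0.0525. Hoxa4 did not pass the test (log2 fold change 0.26 ± 1.0, adjusted p = 0.848), at 0 to 8.56 CPM in colon and 0.184 to 3.21 CPM in jejunum organoids.

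Hoxa9 and Hoxa11 were not tested in organoids. In colon organoids, Hoxa9 had 1.05 and 0 CPM in ethanol mice and no count in control mice. In jejunum organoids, Hoxa9 had 0, 0.457, 0 and 0 CPM in ethanol mice and no count in control mice. That was 3 counts in colon and 2 in jejunum. In colon organoids, Hoxa11 had 0.352 and 0 CPM in ethanol mice and 8.35 and 0 CPM in control mice. Hoxa11 had no count in the 8 jejunum organoid libraries. Its counts came almost wholly from control colon organoid 1. Both are posterior genes that were seen in each colon tissue library.

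Hoxc6 and Hoxc8 were higher in colon organoids, against the direction in tissue. In colon organoids, Hoxc6 had 22.1 and 9.66 CPM in ethanol mice and 14.7 and 0 CPM in control mice. In jejunum organoids, Hoxc6 had 0, 0, 0 and 0.291 CPM in ethanol mice and 0.553, 0, 0.229 and 0 CPM in control mice. The call (log2 fold change 6.05 ± 0.96, adjusted p = 0.000194) was lost without control colon organoid 1 (2.24), whose group was then at 0. In colon organoids, Hoxc8 had 7.38 and 5.20 CPM in ethanol mice and 9.33 and 22.0 CPM in control mice. In jejunum organoids, Hoxc8 had 0, 0, 0.659 and 0 CPM in ethanol mice and no count in control mice. Hoxc8 had counts in all 4 colon libraries and in 1 jejunum library, 65 against 2, a ratio of 159 (95% interval 42.2 to 1340, log2 fold change 6.81 ± 0.94, adjusted p = 0.000231). Hoxc9 was seen in control colon organoids alone. In colon organoids, Hoxc9 had no count in ethanol mice and 7.37 and 9.78 CPM in control mice. Hoxc9 had no count in the 8 jejunum organoid libraries. No p could be had for it over both treatments, and its mean was at least 49.2-fold higher in colon. Hoxc12 had 0 and 15.6 CPM in ethanol colon organoids, 21 counts in 1 library, and no count in any other of the 27. Hoxc4 had 2 counts in ethanol colon organoid 1 and none in other organoids.

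Hoxd4 was the only Hoxd gene tested in organoids. In colon organoids, Hoxd4 had 10.9 and 17.1 CPM in ethanol mice and 39.8 and 0 CPM in control mice. In jejunum organoids, Hoxd4 had 0, 1.14, 1.98 and 2.91 CPM in ethanol mice and 0.553, 1.96, 2.98 and 0.434 CPM in control mice. It was in all colon libraries except control 2 (log2 fold change 3.41 ± 0.86, adjusted p = 0.00464), and without control colon organoid 1 the value was −1.10 with no call. Hoxd9 had 1.47 and 0 CPM in control colon organoids and no count in other organoids, and Hoxd10 and Hoxd11 had none in any organoid library. Of the 14 low members, Hoxa6, Hoxc5, Hoxc13, Hoxd1 and Hoxd12 had no count in organoids. Hoxc10 (1 colon library, 3.17 CPM), Hoxc11 (1, 0.703 CPM) and Hoxd8 (1, 0.703 CPM) were seen in colon organoids alone. Hoxd3 and Hoxd13 had 1 library in each segment, at 6.69 and 5.20 CPM in colon and 0.217 and 0.197 CPM in jejunum. Hoxa2 had no count in colon organoids and 0 to 1.32 CPM in 7 of 8 jejunum libraries, and Hoxa13 had 1 count, in a jejunum library.

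Whether the segments differed more in culture than in tissue was tested as the difference between the 2 log2 fold changes. Of 31 members in that fit, 9 had a higher value in organoids and 2 a lower one, where 21.7% and 29% of all genes were called. For 16 of the 31 the fit gave no usable standard error. Hoxc8 had the largest difference (12.09 ± 1.27, adjusted p = 5.06e-08), followed by Hoxc6 (9.20 ± 1.35, adjusted p = 3.38e-06), the genes that were higher in jejunum tissue and in colon organoids. The others with a higher value were Hoxb5 (6.19 ± 0.81), Hoxb4 (5.67 ± 0.91), Hoxb8 (5.67 ± 1.26), Hoxa7 (5.33 ± 1.47), Hoxb2 (5.12 ± 1.49), Hoxb6 (4.55 ± 1.45) and Hoxb3 (3.48 ± 0.94), with adjusted p from 5.7e-07 to 0.0117. Hoxa3 (−6.99 ± 1.06, adjusted p = 4.92e-06) and Hoxa2 (−5.71 ± 1.89, adjusted p = 0.0134) had a lower value. Fitted differences of Hoxa2, Hoxa3, Hoxa7, Hoxb2 and Hoxc8, which had no count in some group, depend on the prior count. No posterior gene was called, and none of them had a usable standard error. Without the 3 colon tissue libraries, 10 of 26 were higher and 1 lower, and without control colon organoid 1 the difference of Hoxb6 was −0.89 with no call, that of Hoxb3 2.12 (adjusted p = 0.184) and that of Hoxc6 5.27 with its group at 0. Hoxa7 was lost without control jejunum tissue 1 (2.33), and Hoxb2 without control jejunum tissue 2 (1.96) or ethanol colon organoid 1 (2.38).

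**Figure D3:**
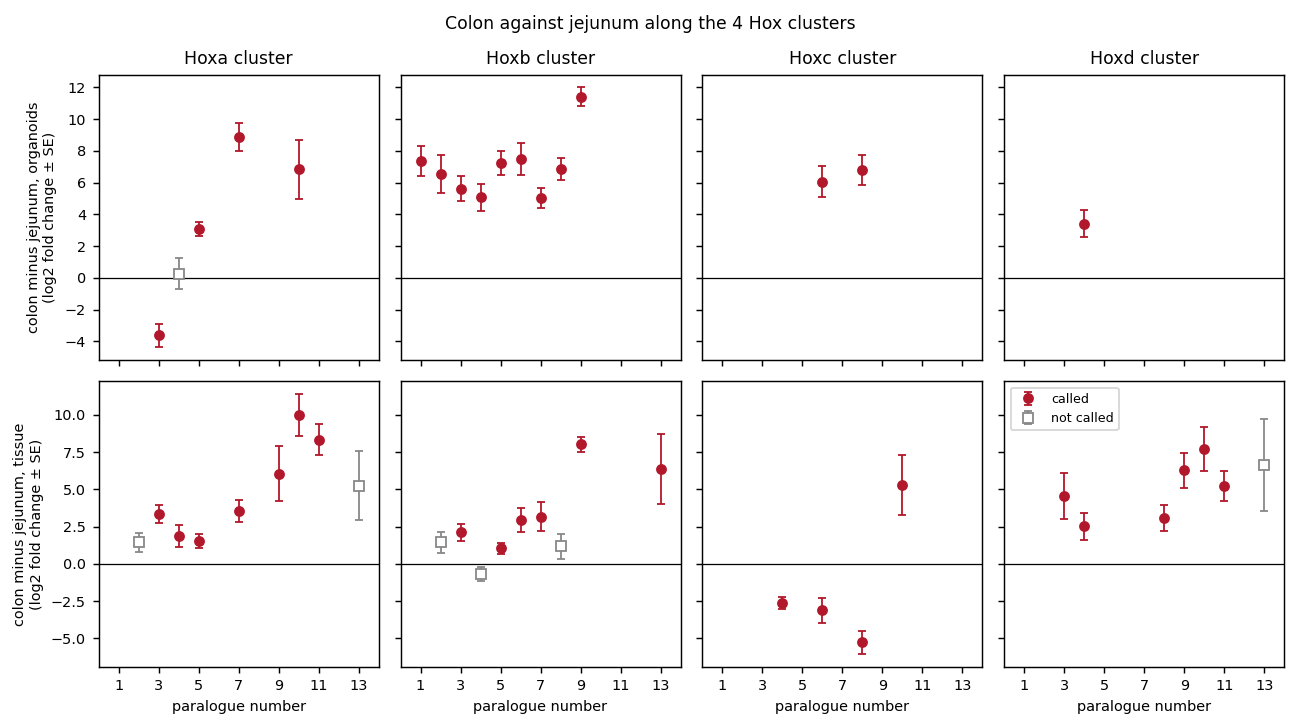
Log2 fold change of colon over jejunum with its standard error against paralogue number, for organoids above and tissue below, in the 4 clusters, with red circles for members called at an adjusted p under 0.05 and grey squares for the others. Only genes that passed the filter on low counts are shown. In tissue their folds climbed with paralogue number in Hoxa and Hoxd, and the Hoxc genes 4 to 8 lay below 0. All 11 tested tissue genes of numbers 9 to 13 passed with no jejunum library over the filter level, so that the filter partly fixed this climb. In organoids the Hoxb genes lay between 5.04 and 11.42 along the cluster and Hoxa3 lay below 0.

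In colon, Hoxb9 was higher in organoids than in whole tissue, and Hoxd8 to Hoxd11 and Hoxa9 to Hoxa11 were lower. Of 31 members tested in colon, 3 were higher and 12 lower in organoids than in tissue, where 17.9% and 35% of all genes were called. The share of members lower was thus near that of all genes, and the share higher was below it. The values behind these calls are those given by library above, and the median of all genes was itself at −0.42 on the log2 scale, or −0.30 with another scaling of the libraries. Hoxb9 was higher in organoids by 2.30 ± 0.30, adjusted p = 1.44e-06 on the log2 scale, and the 4 organoid libraries (104 to 451 CPM) lay above the 8 tissue libraries (36.5 to 59.9 CPM). Hoxb1 had 61 counts in organoids and 1 in tissue, a ratio of 349 (95% interval 60.3 to 14000). Hoxc8 was higher by 2.39 ± 0.76, adjusted p = 0.0118 on that scale, at 5.20 to 22.0 CPM in organoids and 0 to 4.32 CPM in tissue. That call was lost without control colon organoid 2 (adjusted p = 0.0618) or ethanol colon organoid 1 (0.0819) and in ethanol mice only (0.154).

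Hoxd10 and Hoxd11 had no organoid count, and tissue was higher by at least 54.8-fold and 29.0-fold. Hoxa2, at 0 in colon organoids, was lower by at least 9.43-fold, or 5.01-fold without the 3 colon tissue libraries. Counts of 3 against 501 for Hoxa9, 3 against 256 for Hoxd9, 2 against 113 for Hoxd8 and 2 against 84 for Hoxc4 gave ratios of organoids to tissue of 0.0343 (95% interval 0.00704 to 0.101), 0.067 (95% interval 0.0137 to 0.198), 0.101 (95% interval 0.0121 to 0.374) and 0.136 (95% interval 0.0162 to 0.508). The Hoxa9 ratio rests on the 3 tissue libraries that stood apart, and against the other 5, at 0.848 to 1.62 CPM, it was 0.36 (95% interval 0.0701 to 1.16). Without control colon organoid 1, Hoxa9 (adjusted p = 0.0751), Hoxc4 (0.0517) and Hoxd8 (0.053) were not called. Hoxa3 (−5.40 ± 0.88, adjusted p = 1.61e-05), Hoxa5 (−2.26 ± 0.51, adjusted p = 0.000596), Hoxa10 (−4.21 ± 1.07, adjusted p = 0.00401) and Hoxa11 (−3.40 ± 0.90, adjusted p = 0.00476) were lower on the log2 scale. Control colon organoids had no Hoxa3 count, so that its fitted fold depends on the prior count: Hoxa3 averaged 4.46 CPM in organoids and 24.0 CPM in tissue, and the value in ethanol mice only was −1.47 (adjusted p = 0.0914). Hoxb5 was lower by a smaller margin (−1.19 ± 0.49, adjusted p = 0.0423), and this call was lost under 21 of 35 alternatives, among them DESeq2 (adjusted p = 0.0599), RLE scaling (0.067) and ethanol mice only (0.753). Without the 3 colon tissue libraries the counts were 3 higher and 12 lower. The summed smooth muscle and fibroblast markers of colon tissue (4715 to 25080 and 661 to 3574 CPM) were far above those of colon organoids (100.2 to 178 and 45.2 to 175 CPM), and their part in these differences was not tested.

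In jejunum, Hoxa5, Hoxb3 to Hoxb6, Hoxb8, Hoxc4, Hoxc6 and Hoxc8 were lower in organoids than in tissue and Hoxa3 was higher. Of 31 members, 1 was higher and 12 lower in organoids, where 26.3% and 37.5% of all genes were called. For 12 of the 31 the fit gave no usable standard error. The share lower was near that of all genes. The higher gene was Hoxa3, at 4.65 to 8.24 CPM in organoids and 0 to 7.99 CPM in tissue (1.59 ± 0.57, adjusted p = 0.0175). This call was lost without control jejunum tissue 1 (1.25) or 3 (1.23), the 2 tissue libraries with no Hoxa3 count. Hoxb3 to Hoxb6 and Hoxb8 were lower, with log2 fold changes of −4.08 ± 0.75, −6.36 ± 0.69, −7.38 ± 0.63, −5.72 ± 1.16 and −5.81 ± 1.0 and adjusted p from 1.79e-10 to 0.000173. Hoxa5 was lower (−3.74 ± 0.46, adjusted p = 7.72e-08), and its libraries did not overlap, at 1.29 to 3.78 CPM in organoids and 11.8 to 43.0 CPM in tissue. The Hoxc genes that set jejunum tissue apart were lower as well. Hoxc4 had no organoid count and was lower by at least 105-fold, Hoxc6 had a log2 fold change of −7.63 ± 1.05, adjusted p = 6.15e-07, and Hoxc8 had 2 counts in organoids and 851 in tissue, a ratio of 0.00148 (95% interval 0.000179 to 0.00536). Hoxa7 and Hoxd8, also at 0 in organoids, were lower by at least 12.2-fold and 2.01-fold, and Hoxb2 had 1 count against 32, a ratio of 0.0197 (95% interval 0.000483 to 0.118). Left out singly, control jejunum tissue 1 ended the call of Hoxa7 and control jejunum tissue 2 that of Hoxb2, each with its group then at 0. Hoxd8 was not called by DESeq2 (adjusted p = 0.0638), without control jejunum tissue 3 (adjusted p = 1) or ethanol jejunum tissue 3 (0.0738), or in control (0.15) or ethanol mice only (0.127). Without the 3 colon tissue libraries in the fit, 1 was higher and 14 lower. The smooth muscle markers were at 116 to 169 CPM in jejunum organoids and 705 to 3514 CPM in jejunum tissue, and their part was not tested.

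No Hox gene passed the test for ethanol in tissue. In colon tissue, 0 of 29 members were higher and 0 lower in ethanol than in control mice by edgeR, where 0% and 0.00744% of all genes were called, and DESeq2 also called 0. No member had an unadjusted p under 0.05, against 324 of 13434 genes. Values by library are those given above, where 2 ethanol libraries and 1 control library carried the Hoxb13 pattern. Without these 3 libraries edgeR again called 0. In jejunum tissue, edgeR called 0 higher and 0 lower of 29, where 0% and 0% of all genes were called, and DESeq2 called 0. 3 members had an unadjusted p under 0.05, Hoxa3 (0.0224), Hoxb9 (0.031) and Hoxa2 (0.0489), against 1534 of 13434 genes. Hoxa3 had 71 counts in the 4 ethanol and 2 in the 3 control libraries, a ratio of 7.01 (95% interval 1.87 to 59), and the 3 control libraries were shallower than any ethanol library. That interval covers counting error only and not the spread between libraries, with 11, 6, 37 and 17 counts in ethanol and 0, 2 and 0 in control. Hoxa3 was singled out by its unadjusted p and was not called. The median of all genes stood at 0.18 in that comparison, and at 0.03 with another scaling. The difference of the ethanol effect between colon and jejunum tissue was called for 0 members in either direction, where 0% of all genes were called each way. 2 members had an unadjusted p under 0.05, against 894 genes, and DESeq2 called 0.

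No Hox gene passed the test for ethanol in jejunum organoids. Of 18 tested, edgeR called 0 higher and 0 lower, where 0% and 0% of all genes were called, DESeq2 called 0, and 0 members against 144 of 12922 genes had an unadjusted p under 0.05. Hoxa3 was at 5.71 to 8.24 CPM in ethanol and 4.65 to 7.80 CPM in control jejunum organoids.

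Colon organoids gave the only ethanol call. Of 18 members, 1 was higher and 0 lower, where 12.1% and 5.19% of all genes were called. The gene was Hoxa3, with 19 and 15 counts (6.68 and 11.2 CPM) in the ethanol libraries and none in the control libraries, at least 8.48-fold higher (fitted log2 fold change 7.89 ± 1.26, adjusted p = 0.00245). 1 count was worth 0.491 and 1.22 CPM in the control cultures. With the 2 groups fitted alone no member was called. Hoxc9, Hoxa7 and Hoxb2 had unadjusted p of 0.021, 0.029 and 0.046 and did not pass (adjusted p = 0.089, 0.11 and 0.148), with lower values in ethanol. Hoxb9 had 451 and 306 CPM in ethanol and 272 and 104 CPM in control cultures and was not called (1.18 ± 0.56, adjusted p = 0.182). The calls changed when control colon organoid 1 or 2 was left out. The control group then held 1 library, so that counts of calls from those fits are not given. In the same cultures the colon epithelium markers were at 9752 and 14790 CPM with ethanol and 1154 and 3501 CPM in controls, and their part was not tested. Between colon and jejunum organoids the effect of ethanol differed for Hoxa3 (7.67 ± 1.38, adjusted p = 0.0071), 1 member higher and 0 lower where 7.2% and 2.23% of all genes were called.

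**Figure D4:**
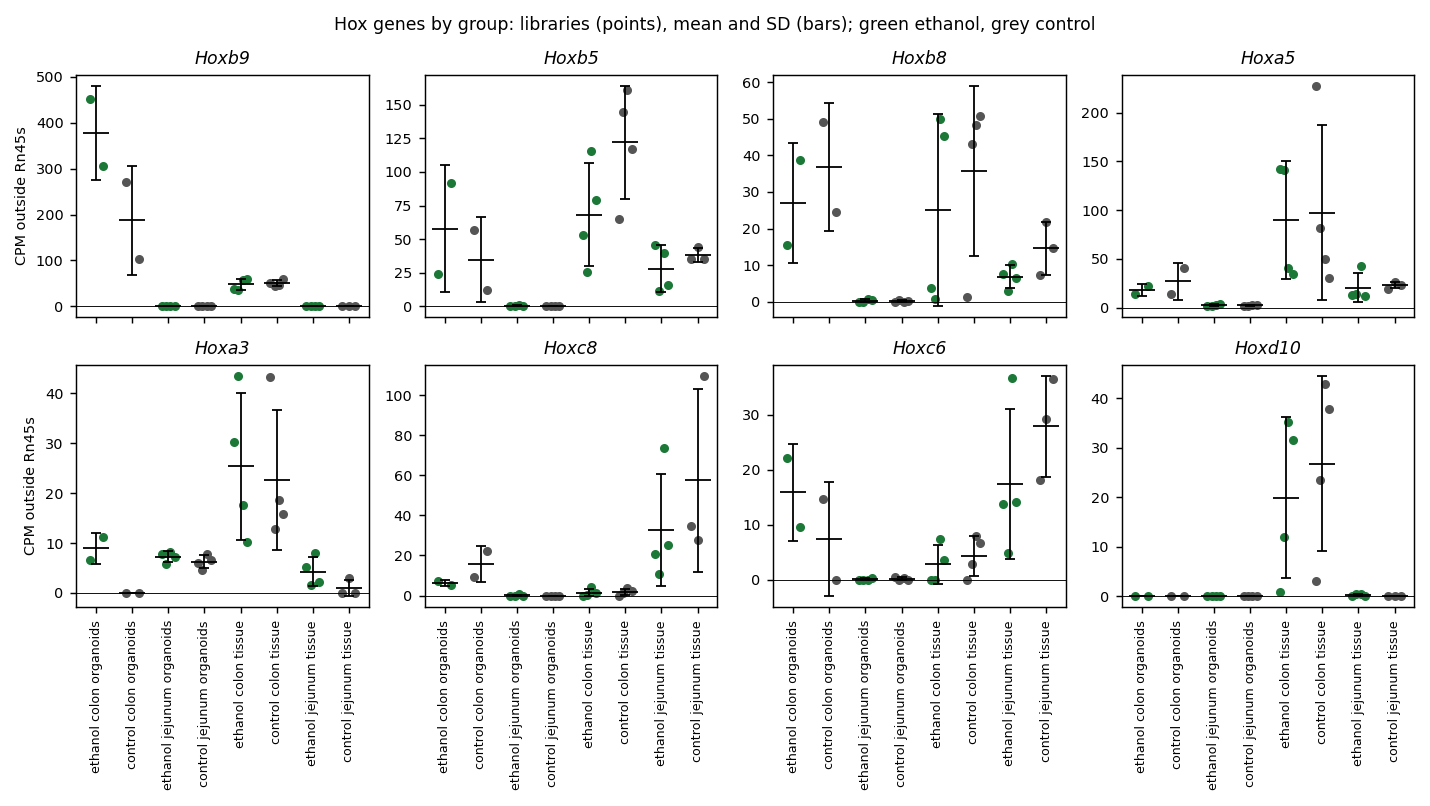
Level of 8 Hox genes, as CPM outside Rn45s, in the 8 groups, with a point for each library and the mean and SD of each group, ethanol left of control. Hoxb9 lay between 104 and 451 CPM in colon organoids and between 36.5 and 59.9 CPM in colon tissue, and Hoxc6 and Hoxc8 were highest in jejunum tissue.

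Genes that act with or on Hox genes are given by list, beside the 36.8% of all genes called higher and 24.7% lower in colon tissue and the 29.1% and 30.7% in colon organoids. Of 9 TALE cofactors, the Pbx, Meis and Pknox partners of Hox proteins, 6 were higher and 2 lower in colon tissue. Among the called members with the smallest p were Pbx3 (6.22 ± 0.90, adjusted p = 1.94e-05), Meis3 (2.04 ± 0.40, adjusted p = 0.000263) and Meis2 (2.51 ± 0.48, adjusted p = 0.000383), and Pbx4 (−3.19 ± 0.37, adjusted p = 8.23e-07) and Pbx2 (−0.99 ± 0.21, adjusted p = 0.000588) were lower. In organoids 6 were tested and 3 were higher in colon, among them Meis2 (5.02 ± 0.41, adjusted p = 1.1e-06) and Meis3 (2.26 ± 0.80, adjusted p = 0.028), and 0 lower. The list's median log2 fold change was 1.29 in tissue, against 0.30 over all genes, and 1.42 in organoids, against −0.08. In the 4 ethanol comparisons none of them was called, of 9 tested in tissue and 6 in organoids. Of all genes, 12.1% were called higher and 5.19% lower in colon organoids, and no more than 0.00744% either way in the other comparisons.

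Cdx1 and Cdx2, hindgut regulators upstream of Hox genes, changed direction between tissue and culture. Cdx1 was at 281 to 617 CPM in colon tissue and 55.6 to 105 CPM in jejunum tissue, against which colon organoids had 4.91 to 78.1 CPM and jejunum organoids 248 to 362 CPM. Cdx2 was at 84.7 to 204 CPM in colon tissue and 26.5 to 69.1 CPM in jejunum tissue, and at 83.5 to 149 CPM in colon organoids and 210.1 to 274 CPM in jejunum organoids. Colon over jejunum gave log2 fold changes of 1.75 ± 0.18 and 1.01 ± 0.24 in tissue (adjusted p = 1.98e-07 and 0.00146) and of −3.82 ± 0.27 and −1.23 ± 0.13 in organoids (adjusted p = 3.7e-07 and 6.69e-06). The other 4 genes of that list, Cdx4, Pdx1, Gsx1 and Gsx2, did not pass the filter. In colon organoids ethanol raised Cdx1 (2.90 ± 0.43, adjusted p = 0.00134) and Cdx2 (0.79 ± 0.20, adjusted p = 0.019), with Cdx1 at 39.7 and 78.1 CPM in ethanol and 4.91 and 15.9 CPM in control cultures.

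Of 18 tested Polycomb and trithorax genes, which keep Hox genes silent or active, 5 were higher and 7 lower in colon tissue and 5 were higher and 5 lower in colon organoids, where 36.8% and 24.7% of all genes were called in tissue and 29.1% and 30.7% in organoids. Bmi1 (1.77 ± 0.24, adjusted p = 6.54e-06) and Cbx7 (1.92 ± 0.38, adjusted p = 0.000274) of the Polycomb complexes led the higher ones in tissue, and the histone demethylase Kdm6b (−2.0 ± 0.18, adjusted p = 4.08e-08) and Ash2l (−1.17 ± 0.14, adjusted p = 1.59e-06) the lower ones. Men1 (1.30 ± 0.20, adjusted p = 0.000162) led the higher ones in organoids, and Eed (−1.72 ± 0.16, adjusted p = 2.59e-06) and the methyltransferase Ezh2 (−1.28 ± 0.15, adjusted p = 1.55e-05) the lower ones. Ethanol in colon organoids raised Jarid2 (1.96 ± 0.27, adjusted p = 0.000982) and Ezh2 (0.86 ± 0.24, adjusted p = 0.0275).

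Retinoic acid and other axial signals act on the clusters early in development. Of 10 such genes tested in tissue, 1 was higher in colon, the receptor Rarg (0.83 ± 0.31, adjusted p = 0.0247), and 3 lower, the receptor Rara (−2.61 ± 0.25, adjusted p = 1.21e-07), the retinoic acid enzyme Aldh1a3 (−2.92 ± 0.35, adjusted p = 2.87e-06) and Nr6a1 (−1.27 ± 0.30, adjusted p = 0.0012), where 36.8% and 24.7% of all genes were called. Of 9 tested in organoids, 6 were higher in colon and 0 lower, where 29.1% and 30.7% of all genes were called, led by Aldh1a3 (7.31 ± 0.68, adjusted p = 3.05e-06), Rarg (3.50 ± 0.40, adjusted p = 1.37e-05), Nr6a1 (1.42 ± 0.23, adjusted p = 0.000192) and the retinoic acid-degrading enzyme Cyp26b1 (3.36 ± 0.47, adjusted p = 7.56e-05). Aldh1a3 was at 12.8 to 48.9 CPM in colon organoids and 0 to 0.435 CPM in jejunum organoids, and at 4.36 to 16.4 CPM in colon tissue and 29.8 to 87.8 CPM in jejunum tissue. In colon organoids ethanol raised Rxrb (1.45 ± 0.45, adjusted p = 0.0435).

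Of 20 non-coding RNAs and Evx neighbours of the clusters, 9 were in the table. 1 of them, the homeobox gene Evx1 beside Hoxa13, passed the filter in tissue, and it was not called between segments (adjusted p = 0.0942). Hoxa11as, whose symbol names a transcript antisense to Hoxa11, was singled out after its values were seen. It was at 163.6 to 183.6 CPM in the 3 colon tissue libraries high in Hoxb13 and at 5.37 to 9.05 CPM in the other 5. Jejunum tissue held 1 count of it, and organoids held none.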

How the data were processed

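The counts are whole numbers per gene, deposited by the authors for 27 QuantSeq 3′ libraries (Lexogen). Per the submitters' processing notes, Trimmomatic 0.32, BWA, HTSeq, limma and edgeR were used with build mm10; counting settings are not given in the sources used here. Groups follow the labels. CPM was computed here per 1000000 counts outside Rn45s. Members and lists were chosen with earlier results of these data known.

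Counts were scaled by TMM, filtered by group with filterByExpr and tested with edgeR 4.0.16 (robust quasi-likelihood, R 4.3.3) in one fit for tissue, one for organoids and one for all groups, with Benjamini-Hochberg adjustment over all genes tested and calls at an adjusted p under 0.05. Errors of fold changes are standard errors. Scripts were tested on simulated data. Alternatives were DESeq2 1.42.0, RLE scaling, no filter, Rn45s left out, the donor number as a block, single libraries left out, 2 groups fitted alone and each treatment alone. One more, without the 3 colon tissue libraries high in Hoxb13, was chosen after seeing the data. Count intervals are exact, at 95%, and a group at 0 was set to a floor of 3 counts.

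The 25 members with a group mean of at least 5 CPM are given by library and the other 14 by range, with fold changes for members called. Of each list, up to 4 called genes of smallest p are named. A few genes are counted in these totals but not reported here by name. No 2 libraries of a group agreed within sampling noise (chi-square per degree of freedom 2.94 to 88.8 over 35 pairs). Donor numbers recur in every group, including both treatments, and the labels do not say whether equal numbers are 1 mouse. Python 3.11.15, pandas 2.3.3, SciPy 1.17.1 and matplotlib 3.10.9 were used.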

Additional observations from a re-analysis of the deposited data

Results flagged for a closer look

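In groups of 4 libraries, the gap of the highest or lowest library to its nearest neighbour was set against the range of the group, and tested by Dixon's 95% critical value. Of 95 groups of values, 20 (21.1%) passed it, where chance gives about 1 in 20 for continuous values. In 11 of the 20, 1 library alone had a count, so that zeros fixed the ratio and no chance share applies to them. In control colon tissue, library 1 stood apart for Hoxb13 (ratio 0.998, 182.5 CPM), Hoxa9 (0.984, 33.2 CPM), Hoxb2 (0.862, 9.77 CPM) and Hoxa10 (0.849, 137 CPM) as the highest and for Hoxb8 (0.843, 1.26 CPM) as the lowest. In ethanol colon tissue, library 1 stood apart for Hoxa11 (0.847, 23.0 CPM). In ethanol jejunum tissue, library 3 was highest for Hoxa5 (0.945, 43.0 CPM) and library 1 for Hoxb7 (0.906, 4.76 CPM). Control jejunum organoid 1 was lowest for Hoxb4 (0.861, 0.184 CPM). The other values had a ratio of 1.0, since 1 library of the group alone had a count: Hoxa9, Hoxb1, Hoxb9, Hoxc6 and Hoxc8 in ethanol jejunum organoids, Hoxb2 and Hoxb13 in control jejunum organoids, Hoxa10, Hoxb13 and Hoxd9 in ethanol jejunum tissue and Hoxb1 in ethanol colon tissue, at 0.216 to 1.30 CPM.

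The log2 fold change of colon over jejunum differed between organoids and tissue for Hoxc8 by 12.09, Hoxc6 by 9.20, Hoxb5 by 6.19, Hoxb4 and Hoxb8 by 5.67 each, Hoxa7 by 5.33, Hoxb2 by 5.12, Hoxb6 by 4.55 and Hoxb3 by 3.48. It was lower in organoids for Hoxa3 (−6.99) and Hoxa2 (−5.71). Between colon and jejunum organoids the effect of ethanol differed for Hoxa3 (7.67), with no count in control colon organoids.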

How the results depend on the processing

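Of 2220 recomputed values of the 80 member results that were called, 2092 kept direction and call, 125 kept direction without the call and 3 reversed. The reversals were Hoxa3 between organoid segments in ethanol mice only (0.21), and, without control colon organoid 1, Hoxd4 between organoid segments (−1.10, with other single libraries left out up to 3.90) and Hoxb6 in the segment difference (−0.89, up to 5.15). In tissue, the count of members higher in colon was 9 in control mice only and 13 in ethanol mice only. In organoids, the count lower in colon was 0 in ethanol mice only. Members with a lower segment difference in organoids numbered 1 in control mice only, in ethanol mice only and without the 3 colon tissue libraries. Members lower in colon organoids than tissue numbered 7 in ethanol mice only, and members higher in jejunum organoids than tissue 0 in ethanol mice only. Ethanol in colon organoids gave 0 members with the 2 groups fitted alone. Settings with fewer samples have less power by construction, and for the other changes the cause was not tested.

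With single libraries left out, calls ranged from 15 to 20 higher and 3 to 3 lower between tissue segments, 12 to 15 higher and 1 to 1 lower between organoid segments, 6 to 10 and 2 to 3 for the segment difference, 2 to 4 and 10 to 13 for colon organoids against tissue, and 0 to 1 and 11 to 13 for jejunum organoids against tissue. Calls for ethanol in colon organoids and for its difference from jejunum organoids also changed. Leaving out a colon organoid library left 1 in its group, so that those counts are not given.

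Correlations of same-numbered libraries' deviations were −0.109 to 0.124 between segments (2 of 11 pairs over 0.1), −0.073 to 0.114 between organoids and tissue (1 of 11) and −0.167 to 0.586 between treatments (7 of 13). Since not every pair was over 0.1, the numbers were not taken as pairs in the main fits. That rule is no test of pairing, so the calls with the donor number as a block are given as well. With the replicate block, calls were 18 higher and 3 lower between tissue segments, 10 and 0 between organoid segments, 10 and 2 for the segment difference, 4 and 12 for colon and 1 and 13 for jejunum organoids against tissue, 1 and 0 for ethanol in colon organoids, and 0 for its difference from jejunum organoids and for the other ethanol comparisons. Under the block these were not called: between tissue segments Hoxb6 (2.27, adjusted p = 0.118), Hoxb7 (0.0671), Hoxa4 (0.0861) and Hoxb13 (0.0774), between organoid segments Hoxa10 (0.13), Hoxa3 (0.17), Hoxb2 (0.0932), Hoxb6 (0.0844), Hoxc6 (0.083) and Hoxd4 (0.232), between colon organoids and tissue Hoxb5 (0.316) and Hoxd8 (0.114), and Hoxa3 for the ethanol effect in colon against jejunum organoids (7.58, 0.805). Low counts limit the members seen in few libraries, and 2 libraries a group limit colon organoids. RLE scaling moved the median of all genes from −0.42 to −0.30 in colon organoids against tissue and from 0.18 to 0.03 for ethanol in jejunum tissue.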
